A study of Mus musculus with 6 samples.

Results

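The choroid plexus epithelium is a secretory cell sheet that hangs into the brain ventricles, makes cerebrospinal fluid and forms the barrier between that fluid and blood. Its cells move sodium, chloride, bicarbonate and water across the sheet, export transthyretin (Ttr, a carrier of thyroid hormone and retinol) and carry folate, hormones and vitamins into the fluid. They derive from the dorsal midline neuroepithelium and are joined by tight junctions, whereas capillaries inside the plexus are leaky.

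Choroid plexus epithelial nuclei were selected on their own counts from single-nucleus RNA sequencing (snRNA-seq) of the forebrain. A nucleus was included if under 10% of its unique molecular identifiers (UMIs, 1 per captured RNA molecule) were mitochondrial, if at least 2 of Folr1, Kl, Clic6 and Otx2 were detected, if Ttr reached 5 UMIs, and if Slc17a7, Slc17a6, Gad1 and Gad2, which mark glutamatergic and GABAergic neurons, summed to at most 1 UMI. These criteria were met by 284 of 75867 nuclei, or 0.374% (95% exact binomial interval 0.332 to 0.420%). The libraries were made from flash-frozen forebrains of WT (3) and Npc1-/- (3) littermates aged 16 days (P16). The mutants lack the lysosomal cholesterol exporter NPC1 in every tissue through the Npc1nih allele, and all mice were untreated F1 hybrids of BALB/cJ and C57BL6/J. By the labels each library is 1 forebrain. The 6 libraries are joined in 1 matrix and are told apart only by a barcode suffix. The files used here pair no suffix with a mouse, so WT and Npc1-/- were not compared, and libraries are named by suffix and never treated as replicates of a genotype. All nuclei thus count as 1 sample: ratios carry no p-value, and 95% intervals cover counting error only.

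The 284 nuclei held 1566531 UMIs, with a median of 4807 per nucleus (1186 to 41055) against 4958 in all other nuclei, and a median of 2707.5 detected genes. Libraries 1 to 6 contributed 66, 47, 53, 53, 38 and 27 of these nuclei, and the share by library ran from 0.292 to 0.479% with a median of 0.355%. Library 6 stood apart from the rest: Xist, the RNA that coats the inactive X chromosome, was detected in 39.4% of its nuclei, against 87.4 and 92.8% in libraries 1 and 3 and at most 0.984% in libraries 2, 4 and 5. Whether all nuclei of library 6 came from 1 mouse was not tested. Among 631 barcode sequences seen in more than 1 library, 5 belonged to a choroid plexus nucleus, and 0 were choroid plexus nuclei in both libraries.

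**Figure D1:**
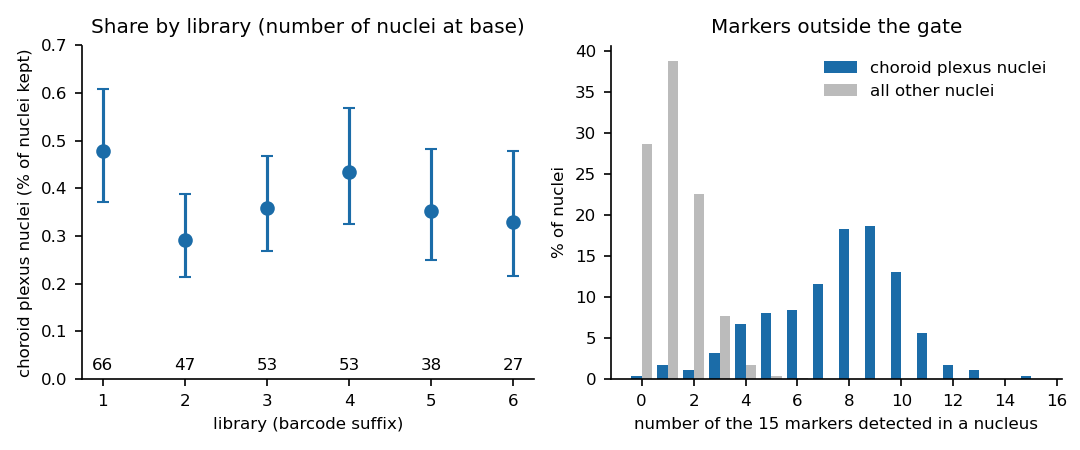
Left, share of nuclei in the choroid plexus gate in each library (percent of nuclei kept, bars are 95% exact binomial intervals, number of nuclei at the base). Right, percent of choroid plexus nuclei and of all other nuclei by how many of 15 markers outside the gate were detected. The shares lie between 0.292 and 0.479%, and the median number of markers is 8 in choroid plexus nuclei and 1 in all other nuclei.

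The gate genes describe the selection and are not a result. Ttr was counted at a median of 19 UMIs per choroid plexus nucleus (5 to 599), and relative to depth it ranged from 2.04 to 655 per 10000 UMIs with a median of 39.5. The 22 nuclei with 100 or more Ttr UMIs held 40.8% of all Ttr UMIs in the gate. Otx2, a homeobox factor required for choroid plexus formation, was detected in 75.7% of the nuclei, Clic6 in 88.7%, Kl (Klotho) in 69.4% and the folate receptor Folr1 in 63.7%. Ttr was also found in 80.1% of neuronal nuclei (median depth 9189 UMIs) at a median of 2 UMIs. With every nucleus thinned to 1000 UMIs, Ttr was detected in 94.4% of choroid plexus nuclei and in 20.8% of neuronal nuclei, and 0 and 10 nuclei respectively were too shallow to be thinned. In ependymal and endothelial nuclei the share after thinning was 38.5 and 39.2%, so Ttr had a background in all 3 comparison populations.

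The label was set beside 15 choroid plexus genes that the gate did not use. They were chosen with earlier results of these data known and covary with the gate, so they are not an independent check. At least 4 of them were detected in 266 of the 284 nuclei (93.7%) and in 1747 of all other nuclei (2.31%). The 8 nuclei just inside the Ttr limit, with 5 UMIs, had a median of 2.5 of the 15 markers, and 11 nuclei just outside it, with 4 UMIs, had a median of 3. Another 251 nuclei failed only by carrying 1 of the 4 gate markers, and 35 of them had 4 or more of the 15. A further 118 nuclei failed only the neuronal limit. They were deeper (median 9800.5 UMIs), and 102 of them carried 4 or more of the 15 markers. The gate thus left out nuclei with choroid plexus RNA together with neuronal RNA, and 9 nuclei inside it (3.17%) carried at most 2 of the 15 markers.

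Genes were compared by their summed UMIs scaled to the total (CPM, counts per 1e+06 UMIs). A gene was considered if at least 20 UMIs were seen or expected in choroid plexus nuclei, and was called higher at a ratio of 4 or more that stood above 1 in each of the 6 libraries, or lower at 1/4 or less and below 1 in each. Against all other nuclei 722 of 10822 genes were higher (6.67%) and 233 lower (2.15%). Scaling by trimmed mean of M-values (TMM) moved all log2 ratios by -0.40 and gave 533 higher and 539 lower, so the balance of the directions depended on the scale. Without library 6 the counts were 710 and 186. Within each of the 15 gene lists other than those of other cell types, the number of members higher or lower than in all other nuclei was equal with and without library 6. Without library 4 they were 712 and 358.

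All 15 markers outside the gate were higher than in all other nuclei. Their median log2 ratio was 5.22 against 0.32 over all genes considered, and they remained 15 of 15 without library 6 and under TMM. These markers covary with the gate, so their ratios describe the selected nuclei. Htr2c, the serotonin 2C receptor (chrX:146962513-147197277, plus strand), was counted at 12890 CPM (lowest, median and highest library 9281, 13704 and 15583) against 193 in all other nuclei, a ratio of 66.8. It was detected in 97.5% of choroid plexus nuclei at a median of 65 UMIs, and after thinning in 92.6% against 13.1% of neuronal nuclei. Enpp2, which encodes autotaxin, the enzyme that makes lysophosphatidic acid, stood at 4858 CPM (4165, 4810 and 6331) against 130. No library overlapped the levels of all other nuclei for either gene. The highest ratio in the list was that of Slc4a5, a sodium bicarbonate cotransporter, at 303 CPM (234, 295 and 479) against 1.10, or 274-fold (log2 ratio 8.10, interval 7.92 to 8.28). Cldn2, a claudin that forms cation and water pores in tight junctions, followed at 77.9 CPM (42.3, 85.1 and 136) against 0.373, or 209-fold, and Kcne2, an accessory subunit of potassium channels, at 35.7 CPM (28.1, 32.6 and 71.5) against 0.405, or 88.2-fold. The water channel Aqp1 was lower in count, with 41 UMIs, and ran from 5.61 to 43.2 CPM over libraries, still above 0.917, the highest value in all other nuclei. The other 9 markers ranged from 14.2-fold for the potassium channel Kcnj13 to 47.4-fold for Sostdc1, an antagonist of BMP and Wnt signals.

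**Figure D2:**
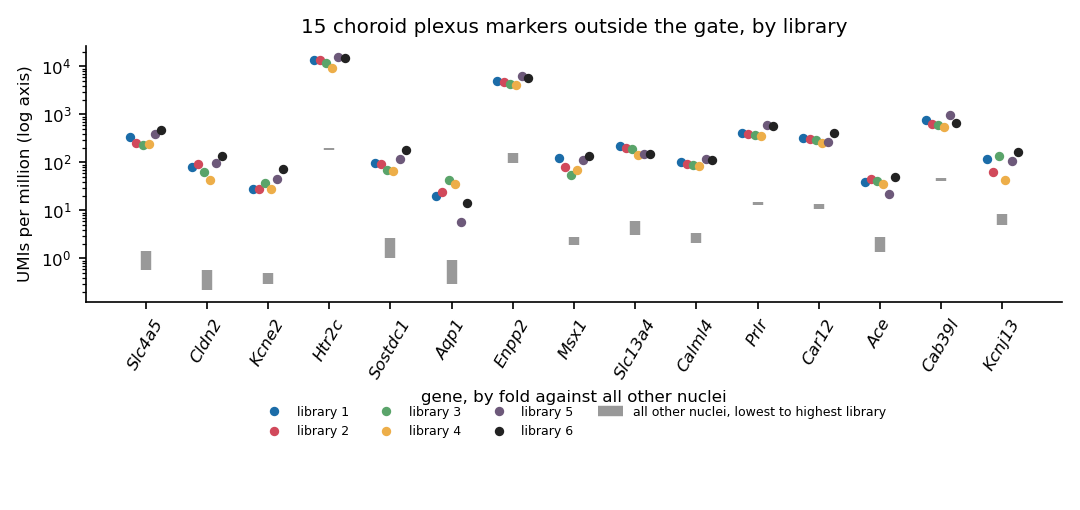
Level of 15 choroid plexus markers outside the gate in choroid plexus nuclei of each library (points, CPM, log axis) and the range over libraries in all other nuclei (grey bars), ordered by fold. For all 15 genes the 6 points lie above the grey range, from Slc4a5 (274-fold) to Kcnj13 (14.2-fold).

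The promoters of the 3 markers with the highest ratio are shown for reference as RefSeq gives them on GRCm38.p6, from 250 bases before to 50 bases after the start, with that of Ace (angiotensin-converting enzyme), the only marker of the list with an OTX core. The cores searched on both strands were TAATCC, which OTX factors bind, and GTAAACA, which forkhead factors such as FOXJ1 bind. Capitals mark the OTX core in Ace, at position 224 from the first base shown. The entries are Slc4a5 at chr6:83237125-83237424, Cldn2 at chrX:139800558-139800857, the first of the 2 entries of Kcne2 at chr16:92292139-92292438 and the first entry of Ace at chr11:105967698-105967997, all on the plus strand.
Slc4a5: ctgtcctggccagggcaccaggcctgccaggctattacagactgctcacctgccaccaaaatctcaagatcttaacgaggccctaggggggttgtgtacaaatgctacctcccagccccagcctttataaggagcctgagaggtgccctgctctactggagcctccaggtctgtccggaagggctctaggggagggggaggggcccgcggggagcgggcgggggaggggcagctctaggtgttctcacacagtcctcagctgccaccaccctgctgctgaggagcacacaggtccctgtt
Cldn2: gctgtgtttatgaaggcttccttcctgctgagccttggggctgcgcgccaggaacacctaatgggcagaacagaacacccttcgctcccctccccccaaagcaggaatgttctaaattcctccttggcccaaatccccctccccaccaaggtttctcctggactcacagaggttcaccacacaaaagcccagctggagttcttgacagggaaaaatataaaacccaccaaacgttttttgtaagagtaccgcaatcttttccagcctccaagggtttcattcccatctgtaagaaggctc
Kcne2: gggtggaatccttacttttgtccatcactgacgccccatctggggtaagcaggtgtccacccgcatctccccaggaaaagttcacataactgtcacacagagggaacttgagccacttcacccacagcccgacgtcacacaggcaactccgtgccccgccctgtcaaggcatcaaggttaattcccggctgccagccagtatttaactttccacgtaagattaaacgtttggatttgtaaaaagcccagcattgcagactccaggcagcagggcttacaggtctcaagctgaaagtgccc
Ace: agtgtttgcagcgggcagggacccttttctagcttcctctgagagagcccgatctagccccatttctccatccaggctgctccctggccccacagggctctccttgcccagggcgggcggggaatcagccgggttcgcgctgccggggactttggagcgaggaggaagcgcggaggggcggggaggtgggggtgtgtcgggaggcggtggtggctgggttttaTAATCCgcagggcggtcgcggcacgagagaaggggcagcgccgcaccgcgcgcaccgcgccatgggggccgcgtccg
Of the 15 markers 13 had an entry. The OTX core was present in 1 of them, Ace, and the forkhead core in 1, an alternative promoter of Prlr. Over all genes, 55 of 527 genes that were higher than in all other nuclei and had an entry held the OTX core (10.4%), against 6.90% of the genes considered and 7.06% of all entries. The forkhead core was found in 3.04, 3.21 and 3.65%. Genes can have several entries, so shares over genes and over entries are not on the same base. A match of letters does not show binding, and its absence from these windows says nothing about the factor.

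Genes for fluid secretion were mostly higher. Of 21 listed, 18 were considered and 13 were higher (13 without library 6 and 12 under TMM), with a median log2 ratio of 3.35. Over all genes considered 6.67% were higher, and the median was 0.32. Of these 13 members, Slc4a5, Aqp1, Car12, Kcnj13 and Kcne2 also belong to the 15 markers above, so they are counted again here. Slc13a4, Cldn2 and Msx1 are likewise shared with the lists of carriers, junction genes and transcription factors. Stk39, the kinase SPAK that activates cation chloride cotransporters, stood at 2412 CPM (2121, 2420 and 2933) against 160. Its substrate Slc12a2 (the cotransporter NKCC1) stood at 493 CPM against 77.9, a ratio of 6.33, and the bicarbonate carrier Slc4a10 at 2024 against 305. All 6 libraries exceeded the range of all other nuclei for these 3 genes. Among carbonic anhydrases, which make bicarbonate, Car12 was 24.9-fold, Car14 23.9-fold and Car2 4.71-fold higher. Trpv4, an osmosensitive cation channel, was 87.2-fold higher, at 139 CPM (107, 136 and 207). The sodium pump subunit Atp1b1 was not called, at 394 CPM against 223. Against ependymal nuclei 11 of 19 members were higher, where 2.39% of all 11172 genes considered were higher and 3.86% lower. The chloride cotransporter Slc12a4 and Car2, both called against all other nuclei, were not called there, at log2 ratios of 1.64 and 1.66.

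Carriers of nutrients and hormones were mixed. Against all other nuclei 8 of 19 considered were higher and 0 lower, against 6.67 and 2.15% of all genes. The zinc carrier Slc39a12 stood at 333 CPM (261, 340 and 379) against 51.9, and no library overlapped the other nuclei. The highest ratios belonged to Slc28a3, a nucleoside carrier (139-fold, 88 UMIs), and Slc16a8, a lactate carrier (136-fold, 34 UMIs). The sulphate carrier Slc13a4 (36.9-fold), the monoamine carrier Slc29a4 (10.2-fold) and the copper carrier Slc31a1 (5.37-fold) were also higher. Lrp2 (megalin), an endocytic receptor of absorptive epithelia, had 5 UMIs, and Slc46a1, the proton-coupled folate transporter, had 7, both too few to be considered against all other nuclei. Against ependymal nuclei 8 of 20 carriers were higher and 2 lower, against 2.39 and 3.86% of all genes. The lower ones were Lrp2 (3.19 against 37.2 CPM) and Cp, the copper protein ceruloplasmin (20.4 against 86.6). The call of Cp was lost without library 1 or library 3, and both calls at a Ttr limit of 2 UMIs.

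The comparison with endothelial nuclei set the epithelial barrier beside the vascular one. Against them 5.51% of 11163 genes were higher and 4.4% lower. Of the carriers, 7 were higher and 7 lower. The 7 that were lower are carriers of the blood-brain barrier: Slco1a4, Slco1c1, Slc22a8, Abcc4, Abcb1a, Slc2a1 and Tfrc. Slco1c1, an organic anion carrier, was counted at 293 CPM in choroid plexus and at 1173 CPM in endothelial nuclei. Of a list of 15 genes of the mature endothelial barrier 12 were lower, with a median log2 ratio of -2.84 against -0.04 over all genes. Slc2a1, Abcb1a, Slco1c1 and Slco1a4 are also among the 7 carriers, so they are counted again here. Tjp1 is likewise shared with the junction genes below. Endothelial nuclei were selected on endothelial markers, so their higher levels of these genes are not independent of that choice. Slc2a1, the glucose transporter GLUT1, stood at 62.6 against 449 CPM and the lipid carrier Mfsd2a at 19.8 against 168. Lef1, a transcription factor of Wnt signalling, was not called, at 290 against 562, and was 4.91-fold higher than in all other nuclei, a call lost under TMM. Among epithelial junction genes the claudins Cldn1 (44.7 against 0.539 CPM) and Cldn2 (77.9 against 0.485), the scaffold Tjp3 (24.3 against 0.539), Cgn (cingulin), the keratin Krt18 and the microvillar linker Ezr were higher, whereas Tjp1 was lower (220 against 1232) and occludin (Ocln, 87.5 against 166) was not called. Against all other nuclei 6 of 13 junction genes considered were higher and 0 lower, against 6.67 and 2.15% of all genes. Of the same list Epcam had 0 UMIs and Cdh1 (E-cadherin) 2.

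Of 17 secreted factors and receptors considered, 10 were higher than in all other nuclei, against 6.67% of all genes, with a median log2 ratio of 3.19 against 0.32. Of these 10, Htr2c, Enpp2, Sostdc1, Prlr and Ace also belong to the 15 markers outside the gate. Besides Htr2c, receptors for prolactin (Prlr, 426 CPM against 13.8, 30.8-fold) and leptin (Lepr, 110 against 10.2, 10.8-fold) were higher, and no library overlapped the other nuclei for either. Secreted members that were higher included Igfbp2 (10.4-fold), which binds insulin-like growth factors, Bmp6 (9.51-fold), Bmp7 (9.11-fold) and Tgfb2 (8.17-fold). Igf2 was at 30.6 CPM against 11.1 and was not called. Against ependymal nuclei 9 of 18 considered were higher, against 2.39% of all genes, with a median log2 ratio of 1.91. Bmp6 was not called there, at 407 CPM against 179. The insulin receptor Insr and Igf1r were lower than in endothelial nuclei, at 144 against 595 and 546 against 2290 CPM, and both calls were lost without library 5.

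Among transcription factors 7 of 16 considered were higher than in all other nuclei (6 under TMM, and 6.67% of all genes), and 3 of 17 were higher and 2 lower than in ependymal nuclei (2.39 and 3.86% of all genes). Gmnc, a coiled-coil regulator that starts the multiciliated cell programme (chr16:26913553-26991652, minus strand), had the second highest ratio among all genes with at least 100 UMIs observed or expected, at 1215 CPM (913, 1256 and 1366) against 3.09, or 394-fold (log2 ratio 8.62, interval 8.52 to 8.72). It was also higher than in ependymal nuclei, which are themselves multiciliated, at a log2 ratio of 6.05 (18.3 CPM there). Lmx1a, a roof plate factor, stood at 311 CPM (261, 310 and 393) against 2.16, and Msx1 at 91.9 against 2.46. Both also exceeded ependymal nuclei. In contrast Foxj1, Rfx2 and Trp73, factors of ciliated cells, were higher than in all other nuclei (10.5-, 12.1- and 22.4-fold) but not called against ependymal nuclei, where their log2 ratios were -1.58, -1.23 and -0.74. Rfx4 and Meis1 were lower than in ependymal nuclei. Genes of 11 hindbrain Hox loci, which mark choroid plexus of the fourth ventricle, had 0 UMIs each. At this depth 3 UMIs would be 1.92 CPM, so low levels could be missed.

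**Figure D3:**
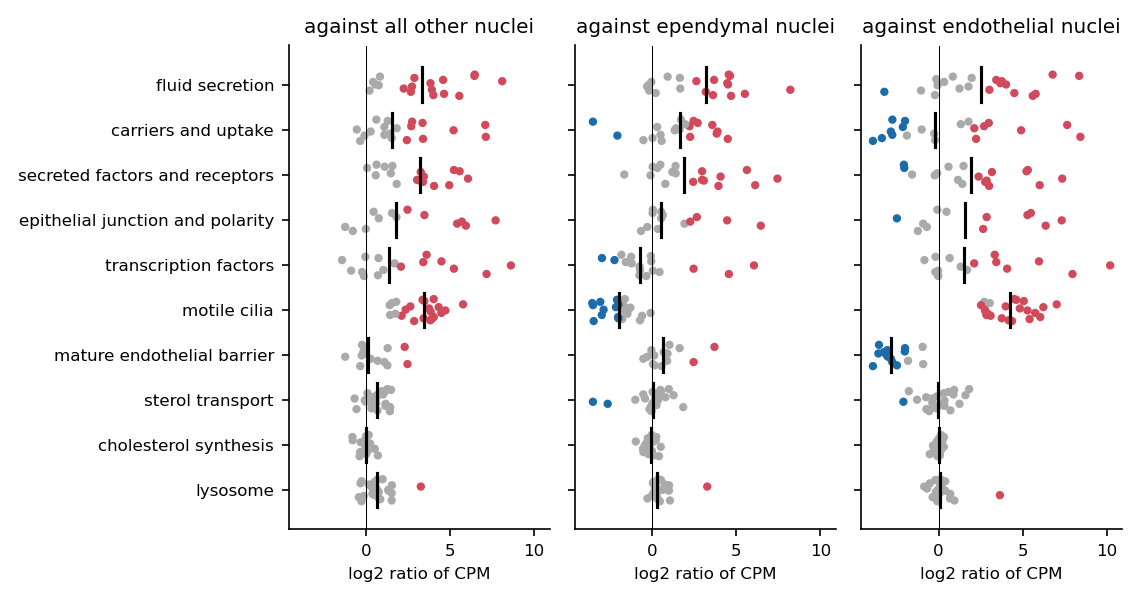
Log2 ratio of CPM of choroid plexus nuclei to all other, ependymal and endothelial nuclei for the considered members of 10 gene lists (points, red called higher, blue called lower, grey not called, black bar the median). Motile cilia genes lie above 0 against all other and endothelial nuclei and below 0 against ependymal nuclei, and the 3 lists of sterol transport, cholesterol synthesis and lysosome have medians between -0.11 and 0.64.

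Motile cilia genes showed a graded pattern. Of 22 considered, 17 were higher than in all other nuclei (15 under TMM), with a median log2 ratio of 3.44, and 20 of 22 were higher than in endothelial nuclei, where 6.67 and 5.51% of all genes were higher. Against ependymal nuclei all 23 considered had a ratio below 1, and 12 were called lower (9 without library 6, and 3.86% of all genes), with a median log2 ratio of -2.02 over the list. Ependymal nuclei were selected on markers that include the axonemal genes Dnah12 and Spag17, so their higher cilia levels are not independent of that choice. Summed over the list, choroid plexus nuclei had 3976 CPM (2872 to 5445 over libraries), ependymal nuclei 12243 (9804 to 16862), neuronal nuclei 350 (340 to 368) and endothelial nuclei 219 (162 to 289), and the 4 ranges did not overlap. Spag16, a central pair protein of the axoneme, came nearest to the ependymal level, at 894 CPM (557, 890 and 1191) against 960, while Hydin, another central pair protein, stood at 110 against 828 and the outer arm dynein Dnah5 at 39.6 against 474. After thinning to 1000 UMIs, at least 3 of 23 cilia genes were detected in 52.1% of choroid plexus, 95.3% of ependymal, 0.549% of neuronal and 0.185% of endothelial nuclei.

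**Figure D4:**
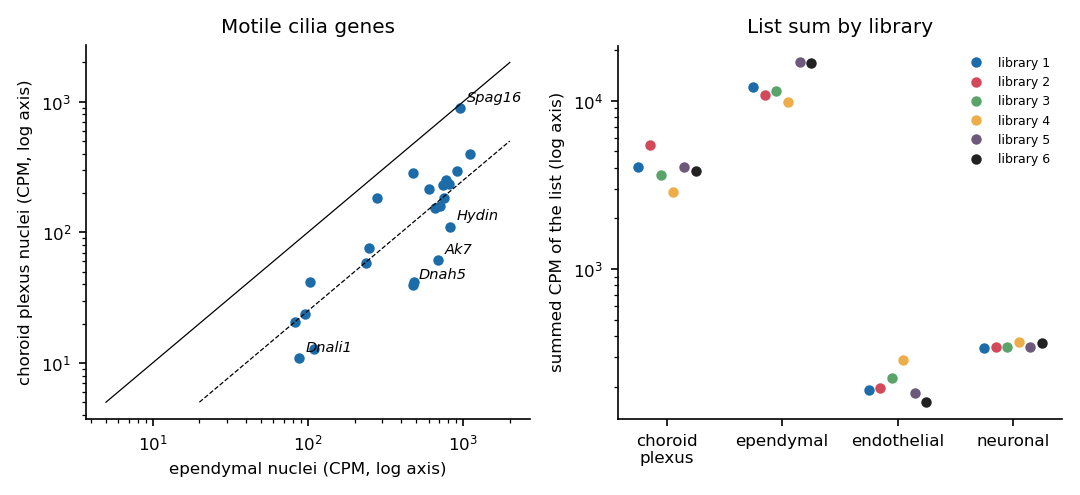
Left, level of each motile cilia gene in choroid plexus against ependymal nuclei (CPM, log axes, solid line equal levels, dashed line 1/4). Right, summed CPM of the list in 4 populations, a point for each library (log axis). Every gene lies below the solid line, Spag16 nearest to it, and the choroid plexus sums (2872 to 5445) lie between the ependymal and the endothelial or neuronal ones. Ependymal nuclei were selected on markers that include axonemal genes.

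Ependymal markers moved with part of this signal. Of 5 ependymal markers, among them the axonemal genes Dnah12 and Spag17, 3 or more were detected in 11 choroid plexus nuclei (3.87%), which had a median of 4 of the 15 choroid plexus markers and held 19.5% of the cilia UMIs. A single nucleus accounted for 45.2% of the cilia UMIs in those 11. In the 163 nuclei with 0 of the 5 ependymal markers the cilia sum was 3133 CPM, still above all other populations but the ependymal one, and 13 of 16 genes considered were higher than in all other nuclei. Since these nuclei were picked for lacking genes of motile cilia, their sum is not independent of that choice.

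Npc1 and the pathways next to it were described over the pooled nuclei. Npc1 stood at 46.6 CPM (28.6, 43.6 and 63.4) against 29.1 in all other nuclei, with a log2 ratio of 0.68 (interval 0.33 to 1.01), and was not called. Over all genes considered the median log2 ratio was 0.32, and TMM moved all log2 ratios by -0.40, so ratios of this size depend on the scale. Of 22 sterol transport genes considered 0 were higher or lower than in all other nuclei (median log2 ratio 0.64), and of 17 genes of cholesterol synthesis likewise 0 (median -0.02), where 6.67% of all genes were higher. Against ependymal nuclei 2 of 23 sterol transport genes considered were lower, Lrp2 and Gramd1c (27.4 against 173.8 CPM), where 3.86% of all genes were lower. Against endothelial nuclei 1 of 22 was lower, where 4.4% of all genes were. It was the lipoprotein receptor Lrp8 (72.1 against 309 CPM), a call lost without library 5. At a 2-fold limit 6 sterol transport and 6 lysosomal genes were higher, and 1693 genes in all. Apoe, the main sterol-carrying apolipoprotein in brain, was at 1102 CPM in the pool but ran from 578 to 2577 over libraries, and 1 nucleus held 32.3% of its UMIs. Of 22 lysosomal genes 1 was higher: Mitf, a transcription factor of the family that also holds Tfeb and Tfe3, at 661 CPM (433, 683 and 1016) against 69.3. Tfeb was at 49.8 against 17.3. Since the nuclei mix both genotypes in unknown parts, these levels describe neither WT nor Npc1-/- choroid plexus.

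Of 17 imprinted genes considered, 2 were higher than in all other nuclei, the cell cycle inhibitor Cdkn1c (6.73-fold) and the transcription factor Plagl1 (8.47-fold). Meg3, a maternally expressed non-coding RNA, stood at 2239 CPM (1060, 1902 and 3686) against 8523, a ratio of 0.263, just short of the limit. It was called lower under TMM, by the median over libraries, and without library 2 or library 4. The imprinted list also had 1 lower member under relative log expression scaling, at 10 Ttr UMIs, with 3 of the 4 gate markers and with a neuronal sum of 0. Against ependymal nuclei Cdkn1c and Grb10, an adaptor of growth factor receptors (283 against 42.8 CPM), were higher and Nnat, neuronatin, was lower (175 against 979.6). Of 6 interferon and stress genes 1, Gadd45g (4.92-fold), was higher than in all other nuclei, and it was no longer called under TMM. These lists are short, and their shares can be read only loosely against 6.67%. Against all other nuclei 2 of 15 cell cycle genes had enough UMIs to be considered and 0 were called. Against ependymal nuclei 4 were considered and 1 was lower, the mitotic kinesin Kif11 (7.66 against 40.3 CPM), and against endothelial nuclei 3 were considered and 0 were called.

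Among all genes with at least 100 UMIs observed or expected, the highest ratio to all other nuclei was that of Defb9, a beta-defensin gene, at 90.0 CPM (24.7, 94.8 and 135) against 0.214, or 421-fold. Tmem72 stood at 427 CPM (342, 412 and 606) against 1.38 (310-fold), the cadherin Cdh3 at 121 CPM against 0.653 (186-fold), the folate receptor Folr2 at 110 against 1.03 (107-fold), the RNA-binding protein Rbm47 at 916 (814, 924 and 1001) against 9.13 (100-fold) and Col4a3, a basement membrane collagen, at 183 against 2.16 (84.6-fold). The remaining coding genes of the 20 highest were Slc4a5, Cldn2, Gmnc, Lmx1a, Trpv4, Tc2n, Wdr72 and Wdr86, and 6 were non-coding, among them Otx2os1, named as the opposite-strand neighbour of Otx2, at 2029 CPM (1667, 2048 and 2396) against 11.9. The sources used here do not say whether counting used the strand, so where the 2 overlap, reads of Otx2os1 cannot be told from those of Otx2, a gate gene. Against ependymal nuclei Col8a1, another collagen, had the highest ratio, at 783 CPM against 2.55. Tmem72 had 0 UMIs there. Its ratio of 279 rests on setting 0 to 3 UMIs and is not a bound, so its order relative to Col8a1 depends on that setting. The 10 lowest genes, at 0.136 to 0.169 times the level of all other nuclei, included Grin2a, a glutamate receptor subunit, at 199 CPM (57.2, 182 and 317) against 1229, Hs3st2 at 12.8 against 84.4 and Slit1, an axon guidance ligand, at 11.5 against 69.7. A list of neuronal markers summed to 1988 CPM in choroid plexus nuclei (1030 to 2611) against 5195 in all other nuclei (5037 to 5386), and 3 or more of its markers were detected in 76.4% of the choroid plexus nuclei and in 87.1% of all other nuclei. With no neuronal limit in the gate, 16 genes were lower in place of 233.

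Markers of further cell types were also detected. At least 3 of 5 markers were detected in 15.5% of choroid plexus nuclei for astrocytes, in 35.9% for oligodendrocytes, in 8.80% for endothelial cells, in 3.52% for microglia and in 9.15% for the erythroid list, against 9.51, 28.1, 7.39, 4.20 and 6.72% of all other nuclei. Over libraries the summed astrocyte markers, which include Slc39a12, ran from 465 to 999 CPM against 172 to 232 in all other nuclei. A single nucleus held 55.0% of the UMIs of Aqp4, 1 of the 5 astrocyte markers, which stood at 441 CPM in library 3 and at 16.8 to 81.1 in the others. Microglial markers summed to 202 to 318 CPM against 98.5 to 130 in all other nuclei. Of the 4 considered, 2 had a ratio above 1, and the median log2 ratio was 0.19 against 0.32 over all genes. Only 1 of them, the chemokine receptor Cx3cr1, was called higher, at 172 CPM against 21.1. Oligodendrocyte markers ran from 365 to 2843 CPM against 405 to 2284, endothelial markers from 410 to 987 against 255 to 453, and ependymal markers from 100.1 to 1181 against 55.7 to 68.8. Of the 5 endothelial markers only 1, Mecom, had a ratio above 1 to all other nuclei, and it was called higher. The median log2 ratio of the 5 was -0.28. Of the border macrophage markers none was detected in 92.3% of choroid plexus nuclei and 94.7% of all other nuclei. At least 1 of the 11 lists, the neuronal one among them, reached 3 markers in 247 choroid plexus nuclei (87.0%). The neuronal list alone did so in 76.4% of choroid plexus nuclei and in 87.1% of all other nuclei. Leaving out the 247 nuclei left 37, and 190 genes were then higher and 284 lower than in all other nuclei, in place of 722 and 233. Only 1846 genes were considered there, in place of 10822. Where the RNA of other cell types in these nuclei came from was not tested.

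Variation between libraries within choroid plexus nuclei was measured for the 774 genes expected at 30 UMIs or more in every library. Over these genes the median ratio of the highest to the lowest library was 1.65. The ratio exceeded 2 in 228 of them (29.5%) and 4 in 62. Counting error was not taken out of these ratios. The widest was Xist, at 1767 CPM in library 1, 1766 in library 3, 486 in library 6, and 10.6 to 22.4 in the others, and in all other nuclei too libraries 1 and 3 were highest and library 6 lay between them and the rest. For Adarb2, Cfap299, Tnr and Tmeff2 a single nucleus held most UMIs of the highest library, 300 of 384, 138 of 166, 57 of 84 and 107 of 168. Adarb2 is an interneuron gene and Cfap299 is one of the ependymal markers. Mbp, a myelin gene, ran from 257 to 2215 CPM, and in all other nuclei from 239 to 1341. Library 6 had the lowest value in 9 of the 10 widest genes.

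**Figure D5:**
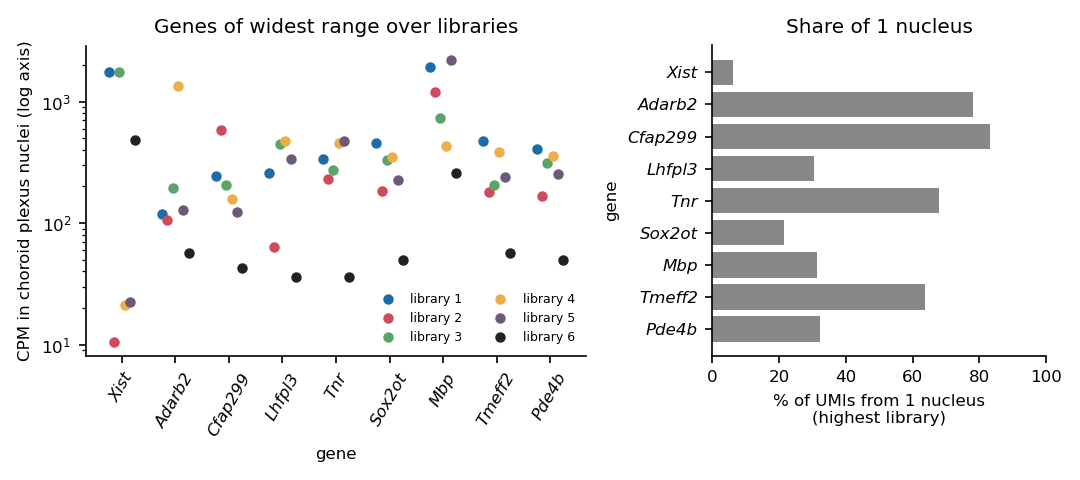
Left, level in choroid plexus nuclei of each library (points, CPM, log axis) for 9 of the 10 genes of widest range over libraries. Right, share of the UMIs of the highest library that came from 1 nucleus. Xist splits the libraries with 6.03% from 1 nucleus, while Adarb2 and Cfap299 owe 78.1 and 83.1% to 1 nucleus, and Tnr and Tmeff2 67.9 and 63.7%.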

How the data were processed

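Nuclei of P16 forebrain were profiled by droplet snRNA-seq (10x Genomics 3' chemistry), by the labels 1 library per mouse. The deposited values are UMI counts, whole numbers per gene and barcode that the authors did not normalize: 75878 barcodes and 32285 genes. The matrix header names Cell Ranger 6.0.0, the submitters' processing notes Cell Ranger 2.1.1 and mm10, and the authors' methods describe STARsolo on GRCm38 with filters for empty droplets, multiplets and mitochondrial share. The sources used here do not say which of these produced the matrix. No doublet caller was run. Mixed nuclei were left out as alternatives.

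UMIs were summed over nuclei and libraries (Python 3.11.15, numpy 2.4.6, scipy 1.17.1, pandas 2.3.3). Ratios carry exact intervals from the conditional binomial distribution, CPM exact Poisson and shares exact Clopper-Pearson intervals, all at 95%. A count of 0 was set to 3 UMIs in a ratio. The 9 gate genes and mitochondrial genes were left out, and so were the markers that define ependymal and endothelial nuclei (at least 3 of 5 detected, with at most 1 UMI of the gate markers and of the neuronal genes) in those comparisons. Neuronal nuclei had at least 3 UMIs of Slc17a7, Slc17a6, Gad1 and Gad2 and 0 of the 4 gate markers. TMM and relative log expression factors came from edgeR 4.0.16 (R 4.3.3). The ratio and call procedure was tested on simulated data. The members, the 26 gene lists (321 of 322 genes in the table) and the naming rule (list members that were called or of high CPM, and the 20 highest and 10 lowest ratios, with 10 each against ependymal and endothelial nuclei) were chosen with earlier results of these data known. Genes outside the gate covary with it, so ratios describe the selected nuclei. Gene coordinates are those of GENCODE vM21 on GRCm38. Depth limits genes under about 20 UMIs. A few genes of the lists are not reported here by name, and counts over lists include them.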

Additional observations from a re-analysis of the deposited data

How the results depend on the processing

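No paired analysis was possible because the barcode suffixes carry no sample label, so no 2 libraries could be paired and no test was made. The share of nuclei in the gate (0.374%) became 0.439% at 2 Ttr UMIs and 0.322% at 10, 0.250% with 3 of the 4 markers, 0.244% with a neuronal sum of 0 and 0.530% with no neuronal limit. It was 0.274% without nuclei carrying 3 of 5 markers of astrocytes, oligodendrocyte progenitors, myeloid, vascular, fibroblast or ependymal cells, and 0.0488% when neuronal, oligodendrocyte and erythroid lists were added to that filter, which left 37 nuclei. Genes lower than in all other nuclei (233) were the least stable count: 83 at 2 Ttr UMIs, 539 under TMM, 526 under relative log expression, 365 by the median over libraries, 147 at 50 and 355 at 5 UMIs, 1096 at 2-fold and 16 with no neuronal limit. Higher genes made up 75.6% of these calls, 49.7% under TMM and 50.6% under relative log expression. With the 37 nuclei, higher and lower calls were 190 and 284 against all other, 133 and 186 against ependymal and 177 and 194 against endothelial nuclei, in place of 722 and 233, 267 and 431, and 615 and 491. With them 7 of the 15 markers, 7 fluid secretion and 8 cilia genes were higher than in all other nuclei, in place of 15, 13 and 17. Fewer genes reached 20 UMIs there (1846 against 10822), and the log2 ratios of the 15 markers ran from 4.18 to 8.68. At 2-fold the higher calls were 1693, 704 and 1203, and the lower ones 1026 against ependymal and 1103 against endothelial nuclei. At 50 UMIs 286 genes were lower than in ependymal nuclei.

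Leaving out each library in turn gave shares of 0.351 to 0.397%. Higher calls ran from 651 to 712 against all other, 265 to 291 against ependymal and 567 to 633 against endothelial nuclei, and lower calls from 172 to 358 (358 without library 4), 387 to 454 and 426 to 509. Of the named genes' ratios under all alternatives, 15224 stayed within their counting interval, 2385 left it and 4 turned. With the 37 nuclei the log2 ratios to all other nuclei were -0.010 for Spag17 and -0.41 for Tmem212. Under the smaller filter they were -0.10 for Tmem212 and, against endothelial nuclei, -0.65 for Dnah12. These 3 genes define the ependymal marker filter itself. Other causes were not tested. The smaller filter, the gate with no neuronal limit, the set without nuclei of 2 or fewer markers and the comparison without near-choroid nuclei were chosen after seeing the data. Depth limits genes under about 20 UMIs, and the 27 nuclei of library 6 give the widest error.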
